A study of Mus musculus with 8 samples.

Results

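The genes of elastic fibres and microfibrils were followed in the embryonic tongue bud, from a list of 10: Eln, Fbn1, Fbn2, Fbln1, Fbln2, Fbln5, Mfap2, Mfap4, Mfap5 and Emilin1. Every probe set whose platform annotation names 1 of these genes and no other was taken, which gave 18 of the 34945 single-gene probe sets on the array. They measure 9 of the 10 genes, out of 18193 genes measured in all. Fbn1, which encodes fibrillin-1, had no such probe set here and was not analysed here. The array hybridises labelled RNA to short probes grouped in probe sets, and the values are log2 expression values per probe set, on which 1 unit is a doubling of signal.

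The mutant group was 4 tongue buds of Alk5 fl/fl; Wnt1-Cre mouse embryos, and the control group was 4 tongue buds of Alk5 fl/fl embryos, all of strain C57BL/6J at embryonic day 13.5 and without a drug treatment in the labels. Both groups carry the floxed Alk5 gene, which encodes the type I TGF-beta receptor and has the symbol Tgfbr1, and the groups differ by the Cre transgene, which the Wnt1 promoter drives in neural crest cells. The series asked how impaired TGF-beta signalling in cranial neural crest cells affects their exchange with the muscle precursors of the face and tongue. No group had Wnt1-Cre without the floxed gene, so the transgene and the loss of the receptor cannot be told apart. The labels number the buds without naming litters, so p-values measure only the spread between these samples.

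Elastic fibres consist of a core of cross-linked elastin laid down on a scaffold of microfibrils, which are polymers of the fibrillins decorated with smaller glycoproteins. Fibulins and emilins sit at the boundary of the elastin core and the microfibrils, and lysyl oxidases cross-link elastin. Microfibrils also hold latent TGF-beta in the matrix through the latent TGF-beta binding proteins, and in cultured fibroblasts TGF-beta is known to raise elastin production.

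The array medians were 5.96 to 6.01 on the log2 scale. Mutant and control arrays took opposite ends of the first principal component, which carried 45.2% of the variance over genes. The mean of the Y-linked genes Eif2s3y, Kdm5d and Uty was 8.70 to 8.73 on the mutant arrays. On control 3 it was 3.09 against 8.44 to 8.72 on the other controls. The labels leave sex undetermined, and by these genes the groups were not balanced for Y-linked signal. Tgfbr1 read 12.42, 12.42, 12.37 and 12.36 on mutants 1 to 4, against 12.03, 12.12, 11.97 and 11.89 on controls 1 to 4, for its brightest set 1420895_at. Tgfbr1 was higher on the arrays labelled mutant (adjusted p = 0.00342, limma). Its other sets, 1420893_a_at and 1420894_at, changed by 0.82 and 0.52 (adjusted p = 0.0109 and 0.0367 over all single-gene probe sets, limma). The place of the Tgfbr1 probes relative to the floxed part is not given in the sources used here, so Tgfbr1 checks neither the deletion nor the labels. All 9 skeletal muscle markers, all 8 neural crest mesenchyme markers and all 6 epithelial markers measured had a mean above the array medians, as did 10 of 12 smooth muscle and pericyte markers and 4 of 7 cartilage markers.

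Elastin and a subset of its assembly partners were lower in the mutant buds, while the fibrillin and the other fibulins measured did not pass the test in either direction. Of the 9 measured genes, each represented by its brightest probe set, 5 fell and 0 rose (limma, Benjamini-Hochberg adjusted p under 0.05 over all genes), and 0 were higher at an unadjusted p under 0.05 too. Among all genes 5.52% fell and 4.2% rose. The 5 genes were Eln, Fbln5, Mfap4, Emilin1 and Mfap2, and in each of them the 4 mutant values lay below the 4 control values, a separation that 8.87% of all genes showed. The median log2 change was -0.42 over the 9 genes and -0.011 over all genes. The list was chosen with earlier results of these data known, so its comparison with all genes or all probe sets is description only. The mean log2 level over the 9 genes was 9.58, 9.51, 9.46 and 9.42 in mutants 1 to 4, against 9.89, 9.84, 9.86 and 9.91 in controls 1 to 4. In bulk tissue, fewer cells of a type and less RNA per cell cannot be told apart.

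**Figure D1:**
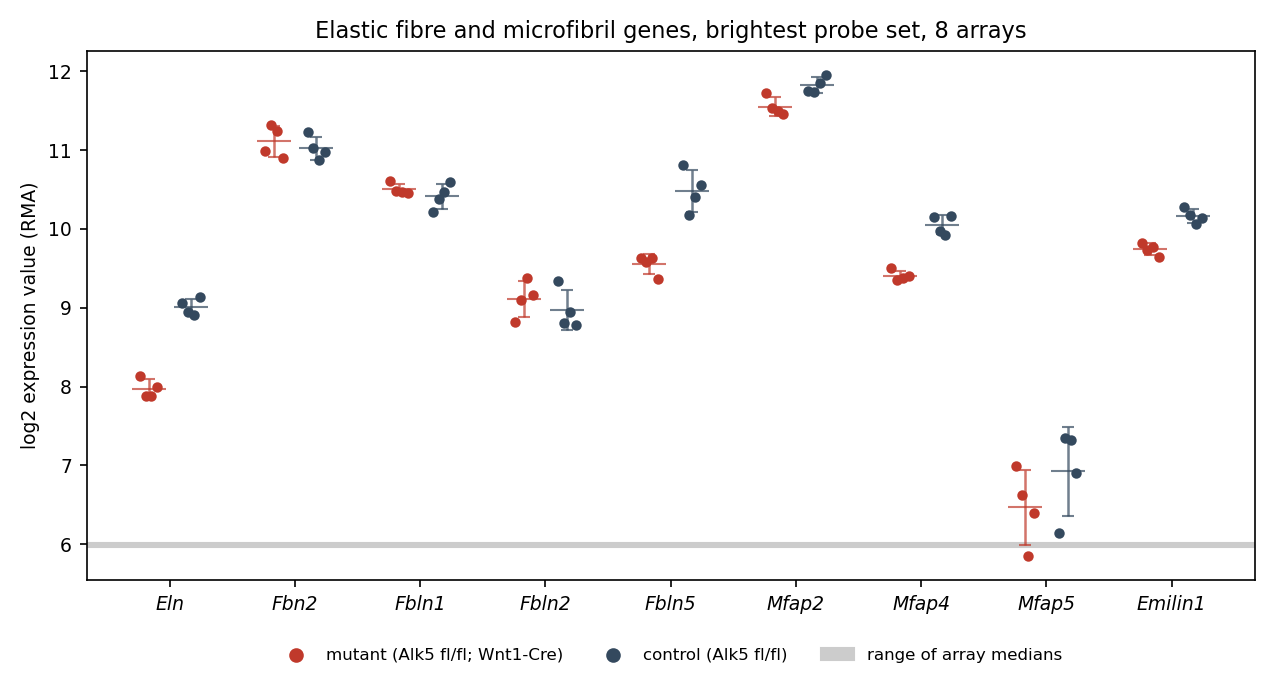
Log2 expression values (vertical axis) of the 9 measured genes on 4 mutant arrays (red, left of each pair) and 4 control arrays (blue-grey, right), with group means and SD; the grey band is the range of array medians. The mutant and control points are apart for Eln, Fbln5, Mfap2, Mfap4 and Emilin1 and overlap for Fbn2, Fbln1, Fbln2 and Mfap5.

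Eln encodes tropoelastin, the soluble precursor of the elastic core. Its brightest set, 1420855_at, read 8.13, 7.88, 7.88 and 7.99 in mutants 1 to 4, against 9.07, 8.95, 8.91 and 9.13 in controls 1 to 4. The highest mutant value lay well below the lowest control value, and the spread within each group was small. The means were 7.97 ± 0.12 in mutants and 9.01 ± 0.10 in controls (SD, n = 4 each). The log2 change was -1.04 (SE 0.075, limma adjusted p = 9.45e-05), which is 0.486 of the control signal. By size of log2 change Eln ranked 76th from the lowest of the 18193 genes. The dimmer Eln set, 1420854_at, read 6.72, 6.61, 6.57 and 6.57 in mutants, against 6.64, 6.83, 6.74 and 7.27 in controls, so its groups overlapped through mutant 1 and control 1. Its log2 change was -0.25, with a 95% interval of -0.53 to 0.03 (adjusted p = 0.312 over all single-gene probe sets, limma). Both Eln sets had a negative change.

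Fbn2 encodes fibrillin-2, the fibrillin known above all from embryonic microfibrils. Its brightest set, 1454830_at, read 10.99, 11.31, 11.24 and 10.90 in mutants 1 to 4, against 11.23, 11.03, 10.88 and 10.98 in controls 1 to 4. The groups overlapped, and the log2 change was 0.085 with a 95% interval of -0.15 to 0.32 (adjusted p = 0.682, limma). The dimmer set, 1422831_at, varied more, at 10.26, 10.99, 11.20 and 10.77 in mutants against 10.95, 10.83, 10.15 and 9.94 in controls. Mutant 1 and controls 3 and 4 were the low arrays on that set, and its log2 change of 0.34 had a wide interval, from -0.26 to 0.94. The intervals, from the fit over genes for the bright set and the fit over probe sets for the dimmer one, reach up to a 1.25-fold rise on the bright set and a 1.91-fold rise on the dimmer one.

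Of the 3 genes for microfibril-associated proteins, Mfap4 and Mfap2 fell and Mfap5 did not pass. Mfap4 encodes a secreted glycoprotein that binds elastin and microfibrils. Its single set, 1424010_at, read 9.50, 9.35, 9.38 and 9.40 in mutants 1 to 4, against 10.15, 9.98, 9.92 and 10.16 in controls 1 to 4. The groups were clearly apart, with means of 9.41 ± 0.06 in mutants and 10.05 ± 0.12 in controls (SD, n = 4 each). Mfap4 changed by -0.64 on the log2 scale (SE 0.068, adjusted p = 0.000665, limma), or 0.64 of the control signal.

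Mfap2 encodes MAGP-1, a small glycoprotein bound to fibrillin microfibrils. Its brightest set, 1417359_at, read 11.72, 11.53, 11.50 and 11.46 in mutants 1 to 4, against 11.76, 11.74, 11.85 and 11.96 in controls 1 to 4. Mutant 1 lay just under control 2, and the other 3 mutant values were lower. The log2 change was -0.27 (SE 0.074) with an adjusted p of 0.0483 in limma. That call was narrow. It held without mutant 1 (log2 change -0.33, adjusted p = 0.0199) and was lost without any other single array, at log2 changes of -0.30 without control 1, -0.30 without control 2, -0.26 without control 3, -0.23 without control 4, -0.27 without mutant 2, -0.26 without mutant 3 and -0.24 without mutant 4 (adjusted p of 0.0583 to 0.125, limma). A second set, 1447833_x_at, whose suffix marks probes that can match other transcripts, changed by -0.28 (adjusted p = 0.021 over all single-gene probe sets, limma) and also had its 4 mutant values below its 4 control values. In that fit over probe sets the brightest set had an adjusted p of 0.0733 (limma) and did not pass.

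Mfap5 encodes MAGP-2, the other small microfibril glycoprotein of this family. Its set 1418454_at read 6.99, 6.63, 5.85 and 6.40 in mutants 1 to 4, against 6.14, 7.34, 7.33 and 6.90 in controls 1 to 4. The groups overlapped widely, since control 1 was lower than 3 of the mutants. The log2 change was -0.46 with a 95% interval of -1.13 to 0.21 (adjusted p = 0.397, limma). Its other set, 1449082_at, read 6.03, 5.76, 5.35 and 5.41 in mutants, against 5.67, 6.32, 6.55 and 6.13 in controls, and there too control 1 was lower than mutants 1 and 2. That set changed by -0.53 (adjusted p = 0.19, limma). Mfap5 was the most variable member, with a within-group SD of 0.52 that exceeded the SD of 99.4% of genes. Without control 1 its log2 change was -0.72 (adjusted p = 0.107, limma), and without mutant 3 it was -0.25 (adjusted p = 0.685, limma).

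The fibulins are glycoproteins that link elastin, microfibrils and basement membranes. Fbln5 encodes fibulin-5, which mice need to assemble elastic fibres. Its brightest set, 1416164_at, read 9.64, 9.58, 9.63 and 9.36 in mutants 1 to 4, against 10.81, 10.17, 10.40 and 10.56 in controls 1 to 4. All mutant values were lower than all control values, and the controls were spread more than the mutants. The means were 9.55 ± 0.13 in mutants and 10.48 ± 0.27 in controls (SD, n = 4 each). Fbln5 changed by -0.93 on the log2 scale (SE 0.125, limma adjusted p = 0.0021), or 0.524 of the control signal. A second set, 1446377_at, lay below the array median on all 8 arrays, at 4.82 to 5.18 in mutants against 5.10 to 5.24 in controls, and changed by -0.16 (adjusted p = 0.319, limma).

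Fbln1 encodes fibulin-1, a protein of basement membranes and elastic fibre cores. Its brightest set, 1451119_a_at, read 10.60, 10.48, 10.48 and 10.46 in mutants 1 to 4, against 10.22, 10.37, 10.47 and 10.60 in controls 1 to 4, and 3 of the 4 mutant values lay inside the control range while mutant 1 lay just above its top. The log2 change was 0.089 with a 95% interval of -0.09 to 0.27 (adjusted p = 0.554, limma). The other Fbln1 sets changed by -0.0065 (1422540_at) and -0.094 (1439688_at), and neither passed. Fbln2 encodes fibulin-2, which binds tropoelastin and fibrillins and is prominent around vessels and in embryonic heart valves. Its set 1423407_a_at read 8.81, 9.09, 9.37 and 9.16 in mutants 1 to 4, against 9.34, 8.81, 8.95 and 8.78 in controls 1 to 4. Control 1 stood near the top of all 8 values and mutant 1 near the bottom, and the log2 change was 0.14 with a 95% interval of -0.18 to 0.47 (adjusted p = 0.6, limma). The second Fbln2 set, 1438375_at, read 2.95 to 3.06 in mutants and 2.94 to 3.13 in controls, below the array median on all 8 arrays.

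The 3 fibulin genes were compared within arrays, a comparison chosen after the values were seen. Its p-values do not account for that choice, and both pairs with Fbln5 use the same Fbln5 values, so they are given as description. The log2 difference of Fbln5 minus Fbln1 changed by -1.02 in mutants relative to controls, with SDs of 0.109 in mutants and 0.353 in controls. For Fbln5 minus Fbln2 the change was -1.08, with SDs of 0.283 in mutants and 0.181 in controls, and for Fbln1 minus Fbln2 it was -0.054. In both pairs with Fbln5 all 4 mutant values lay below all 4 control values. The exact two-sided permutation p was 0.0286 for each pair with Fbln5, the smallest that 4 arrays against 4 can give, and 0.0429 after Benjamini-Hochberg adjustment over the 3 pairs. For Fbln1 minus Fbln2 the exact permutation p was 0.8. With a gene's probe sets averaged in place of the brightest one, the pairs with Fbln5 changed by -0.54 against Fbln1 and -0.60 against Fbln2.

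**Figure D2:**
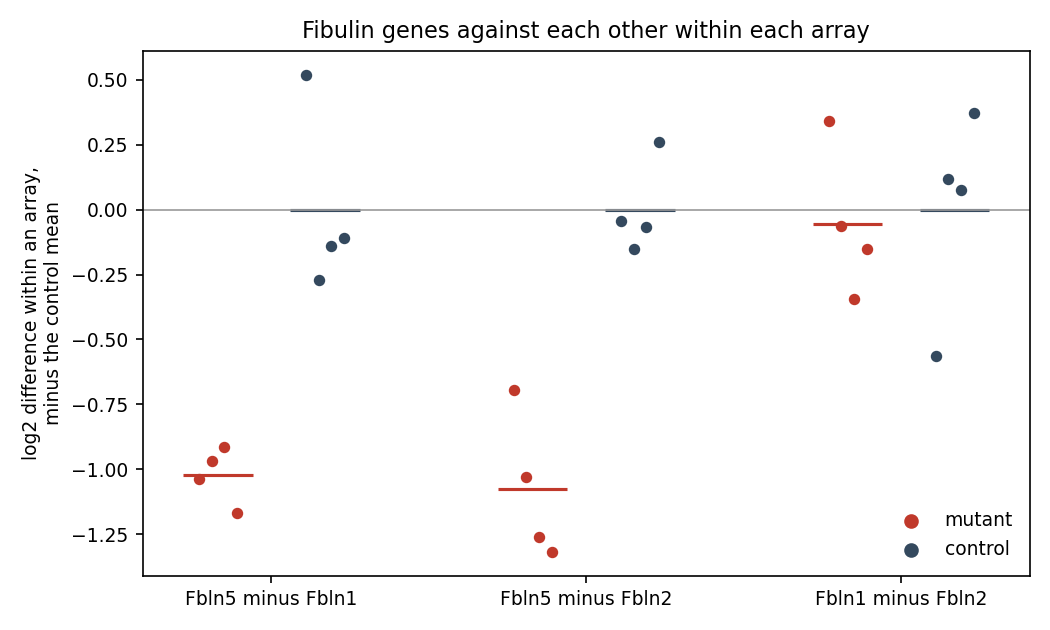
Log2 difference between 2 fibulin genes within each array, with the control mean of each pair set to 0 (vertical axis), for 4 mutant arrays (red, left) and 4 control arrays (blue-grey, right); lines are group means. The mutant points lie below the control points for both pairs that hold Fbln5, by 1.02 and 1.08 on average, and overlap with them for Fbln1 minus Fbln2.

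Emilin1 encodes an interface protein of elastin and microfibrils, which in mice also restrains the processing of the TGF-beta precursor. Its brightest set, 1416414_at, read 9.83, 9.73, 9.77 and 9.64 in mutants 1 to 4, against 10.28, 10.18, 10.07 and 10.14 in controls 1 to 4. The groups did not overlap. The means were 9.74 ± 0.08 in mutants and 10.17 ± 0.09 in controls (SD, n = 4 each). Emilin1 changed by -0.42 on the log2 scale (SE 0.062, limma adjusted p = 0.00305), or 0.745 of the control signal. The dimmer set, 1431834_a_at, read 7.46, 7.36, 7.28 and 7.37 in mutants against 7.53, 7.39, 7.55 and 7.44 in controls. There mutant 1 lay inside the control range, and the log2 change of -0.11 did not pass (adjusted p = 0.346, limma).

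Start-site sequences from RefSeq (assembly GRCm38.p6) were used for 5 of the measured genes, in 8 windows of 300 bases, 250 before and 50 after an annotated start. Of these, 5 are printed, to set the windows of a fibulin gene that fell beside those of the fibulin genes that did not pass, with Emilin1 as a further gene that fell. The second Fbln1 window, which overlaps the first, and the 2 windows of Mfap2, which also fell, are counted but not printed. Of 3 motifs searched, the one marked is CAGAC, the core of the sequence that Smad proteins are known to bind in TGF-beta target genes, on both strands (GTCTG is its reverse complement), and capitals mark each match. The others were the GC box GGGCGG and the TATA box TATAAA, with CCGCCC and TTTATA on the opposite strand; no match of the 3 was tested against expression.
Fbln5 upstream window, chr12:101819070-101819369, minus strand: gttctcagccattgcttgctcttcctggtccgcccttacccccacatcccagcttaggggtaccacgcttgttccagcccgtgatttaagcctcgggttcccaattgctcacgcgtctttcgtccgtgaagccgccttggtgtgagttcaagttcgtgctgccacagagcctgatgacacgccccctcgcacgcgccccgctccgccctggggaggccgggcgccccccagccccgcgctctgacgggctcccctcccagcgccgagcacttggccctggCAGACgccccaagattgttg
Fbln5 downstream window, chr12:101818435-101818734, minus strand: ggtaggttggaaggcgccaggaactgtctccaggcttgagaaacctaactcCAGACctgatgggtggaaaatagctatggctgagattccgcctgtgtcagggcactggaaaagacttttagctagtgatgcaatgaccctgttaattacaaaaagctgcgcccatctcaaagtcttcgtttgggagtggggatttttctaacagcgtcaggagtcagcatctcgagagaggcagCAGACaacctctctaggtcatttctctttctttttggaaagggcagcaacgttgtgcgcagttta
Emilin1, chr5:30913536-30913835, plus strand: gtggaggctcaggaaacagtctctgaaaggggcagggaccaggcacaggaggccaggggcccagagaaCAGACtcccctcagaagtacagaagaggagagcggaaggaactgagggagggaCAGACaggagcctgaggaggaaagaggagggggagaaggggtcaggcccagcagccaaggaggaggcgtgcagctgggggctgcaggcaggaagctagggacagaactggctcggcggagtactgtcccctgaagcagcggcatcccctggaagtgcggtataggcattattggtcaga
Fbln1 upstream window, chr15:85205699-85205998, plus strand: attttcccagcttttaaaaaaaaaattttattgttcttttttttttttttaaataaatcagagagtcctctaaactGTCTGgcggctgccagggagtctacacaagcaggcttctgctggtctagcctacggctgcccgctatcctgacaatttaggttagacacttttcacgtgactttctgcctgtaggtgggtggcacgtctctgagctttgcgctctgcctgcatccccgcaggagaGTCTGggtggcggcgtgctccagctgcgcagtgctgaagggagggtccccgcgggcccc
Fbln2, chr6:91212514-91212813, plus strand: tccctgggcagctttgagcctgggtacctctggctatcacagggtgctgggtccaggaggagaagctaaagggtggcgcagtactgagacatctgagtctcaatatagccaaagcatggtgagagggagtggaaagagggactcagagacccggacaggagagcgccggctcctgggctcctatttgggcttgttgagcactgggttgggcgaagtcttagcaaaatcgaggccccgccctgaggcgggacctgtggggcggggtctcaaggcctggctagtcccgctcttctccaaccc
CAGAC or GTCTG occurred in 49.6% of the 32851 promoter windows of this length. It stood once or more in both Fbln5 windows, in the Emilin1 window and in the Fbln1 windows, and in 1 of 2 windows of Mfap2, while the Fbln2 window held none. The windows of Mfap2 overlap too, and the Fbln1 windows share their matches. The GC box stood in 4 of the 8 windows (Fbln5 upstream, Fbln2, 1 of Fbln1 and 1 of Mfap2) and in 35.7% of all windows. The TATA box stood in 0 of the 8 and in 13.6% of all windows. Fbln1, a gene that did not pass, had as many matches in its upstream window (2) as Emilin1. A match of these letters is a description of the sequence only.

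Over the probe sets taken singly, 5 of the 18 fell and 0 rose in limma (0 were higher at an unadjusted p under 0.05), where 3.25% of all single-gene probe sets fell and 2.69% rose. These were 1 set each of Eln, Fbln5, Mfap2, Mfap4 and Emilin1. The median log2 change was -0.20 over the 18 sets and -0.00232 over all single-gene sets. Every gene with a called set except Mfap4, which has 1 set, also had a set that was not called. In Eln, Fbln5 and Emilin1 the uncalled set was the dimmer one, and in Mfap2 it was the brighter one. With the probe sets of a gene averaged, the log2 changes were -0.65 for Eln, -0.54 for Fbln5 and -0.27 for Emilin1, and all 3 still passed limma.

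**Figure D3:**
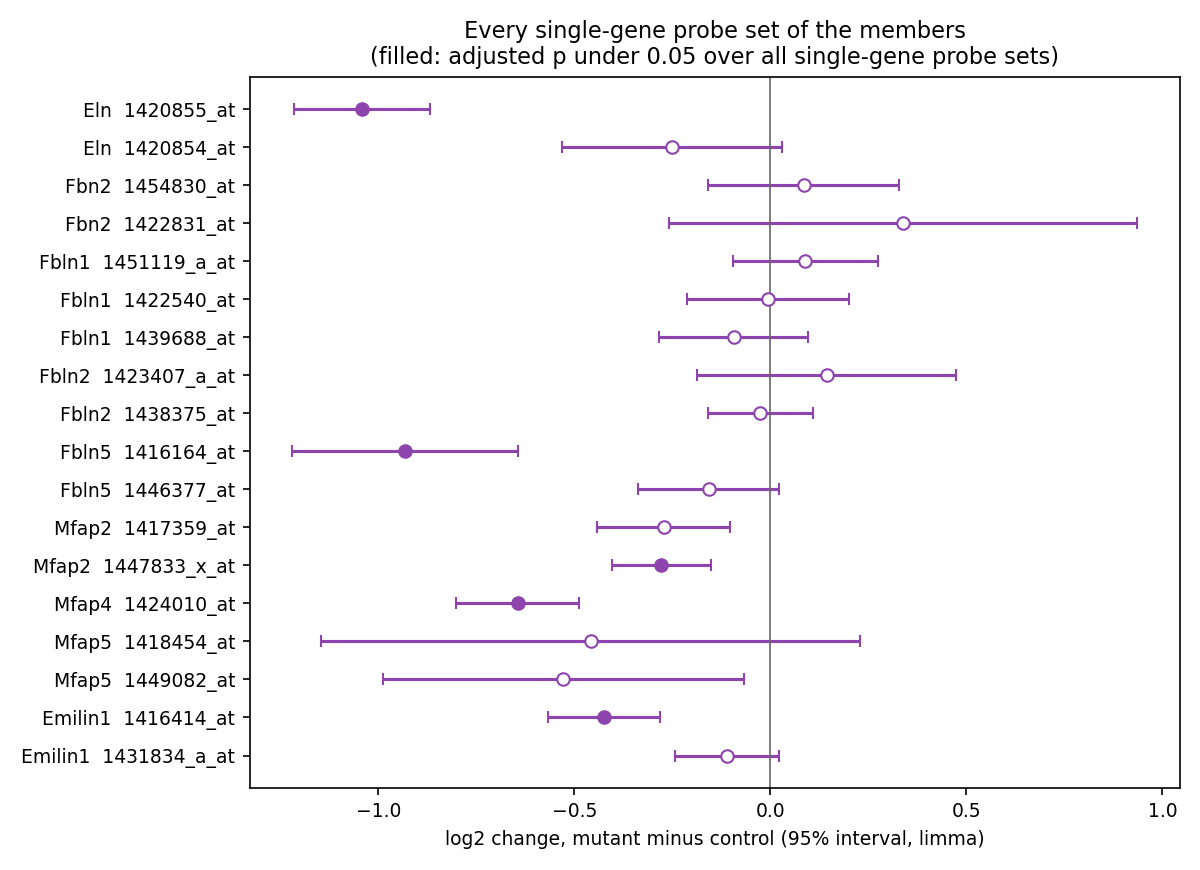
Log2 change, mutant minus control (horizontal axis), of each of the 18 probe sets with its 95% interval from limma; filled points passed an adjusted p of 0.05 over all single-gene probe sets. The 5 filled points all lie left of 0, from -1.04 for Eln to -0.28 for Mfap2, and the Fbn2, Fbln1 and Fbln2 intervals cross 0.

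The genes whose level followed Eln most closely over the 8 arrays were Traf3ip3 (Pearson r = 0.994), Mfap4 (0.993), Arap1 (0.991), Doc2b (0.988) and Acot9 (0.987). These r values describe 8 arrays in separate groups and carry no test, since any gene with a large, even group difference reaches a high r. After the group means were removed, r with Eln was 0.908 for Mfap4, 0.9 for Arap1, 0.84 for Traf3ip3, 0.627 for Acot9 and 0.556 for Doc2b. Among the other members that fell, r with the group means removed was 0.641 for Mfap2, 0.414 for Emilin1 and 0.393 for Fbln5, which ranked 1286th, 4127th and 4458th of the 18193 genes by that r. Fbln1, which did not pass, had 0.344, Mfap5 0.0273, Fbn2 -0.282 and Fbln2 -0.362. Many genes outside the list thus had a higher r with Eln than Emilin1 and Fbln5.

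Other genes that build, anchor or degrade elastic fibres were counted in 4 lists with 46 measured genes, of which 8 fell and 5 rose. Among all genes, 5.52% fell and 4.2% rose. The number that fell was 4 without control 2, 5 without mutant 2, and 4 without mutant 3, mutant 4 or controls 1 and 3 together. The number that rose was 3 without controls 1 and 3. With a gene's probe sets averaged, 5 fell.

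Of 14 measured genes for cross-linking and assembly, 3 fell and 1 rose, with a median log2 change of -0.17. Ltbp3, a latent TGF-beta binding protein, had means of 9.65 ± 0.17 in mutants and 10.10 ± 0.10 in controls (SD, n = 4 each), a log2 change of -0.45 (adjusted p = 0.0117, limma). It held in all fits with 1 array left out, and without controls 1 and 3 it was -0.48 (adjusted p = 0.0513, limma). Of its 4 probe sets 3 changed downward and 2 passed, and their mean changed by -0.24 (adjusted p = 0.0292, limma). Emilin3, a relative of Emilin1, changed by -0.41 (adjusted p = 0.0181, limma). Its call was lost without control 2 (-0.40), mutant 3 (-0.38) or mutant 4 (-0.36). Ltbp1 changed by -0.34 (adjusted p = 0.0479, limma), and its call held without control 3 and was lost without any other single array, at log2 changes of -0.37 to -0.27, and with its sets averaged (-0.22). Emilin2 moved the other way: it read 8.54, 8.58, 8.79 and 8.73 in mutants 1 to 4, against 8.14, 7.95, 7.94 and 8.05 in controls 1 to 4. All its mutant values were higher, and the log2 change was 0.64 (SE 0.073, adjusted p = 0.000963, limma). Within the emilin family Emilin1 and Emilin3 fell and Emilin2 rose.

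The 4 measured lysyl oxidases, which cross-link elastin and collagen, did not pass. They fall outside the rule for named genes and are given for their role. A further lysyl oxidase, Loxl2, was listed for cross-linking and assembly, as was Efemp2, and neither was measured here. Lox changed by -0.27 (adjusted p = 0.307), Loxl1, which is tied to elastic fibres in mice, by -0.34 (adjusted p = 0.113), Loxl3 by -0.15 (adjusted p = 0.247) and Loxl4 by -0.19 (adjusted p = 0.367), all in limma. All 4 changes were negative, and Loxl1 alone of the 4 had an unadjusted p under 0.05.

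Of 7 measured ADAMTS and ADAMTS-like genes, secreted proteins many of which bind fibrillin microfibrils, 3 fell and 0 rose in limma, and 0 were higher at an unadjusted p under 0.05. Thsd4, which encodes the ADAMTS-like protein 6 known to promote microfibril assembly in mice, had means of 8.70 ± 0.15 in mutants and 9.41 ± 0.17 in controls (SD, n = 4 each). The log2 change was -0.71 (SE 0.099, adjusted p = 0.00251, limma). The other Thsd4 set, 1442552_at, lay below the array median on all 8 arrays, changed by 0.092 and did not pass. With the mean of both sets Thsd4 changed by -0.31 (adjusted p = 0.0659, limma). Adamtsl3, another secreted ADAMTS-like protein, changed by -0.44 (adjusted p = 0.00626, limma). Adamtsl2, which binds Ltbp1 and fibrillin, changed by -0.30 (adjusted p = 0.0409, limma), and its call held without control 1 and was lost without any other single array, at log2 changes of -0.31 to -0.25.

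Of 14 genes for integrins, proteoglycans and fibronectin, listed as binding microfibrils or elastin, 1 fell and 3 rose, with a median log2 change of -0.0095. Itgb3, the integrin chain that pairs with alpha v and binds matrix proteins such as fibrillin, read 7.72, 7.91, 7.50 and 7.84 in mutants 1 to 4, against 6.38, 6.35, 6.66 and 6.49 in controls 1 to 4. The groups were far apart, and the log2 change was 1.27 (SE 0.101, adjusted p = 0.000157, limma), or 2.41-fold. Its other set, 1421511_at, changed by 0.10 (adjusted p = 0.601, limma), and the mean of both by 0.68 (adjusted p = 0.000213, limma). Vcan, encoding the large proteoglycan versican, rose by 0.63 (adjusted p = 0.0148, limma). It did not pass without controls 1 and 3, at 0.46 (adjusted p = 0.0997, limma), or with its sets averaged, at 0.29 (adjusted p = 0.0547, limma). Of its 8 sets 2 changed downward and 2 passed. Sets 1421694_a_at and 1427257_at changed by 0.73 each (adjusted p = 0.0833 and 0.0366 over all single-gene probe sets, limma). Sets 1433043_at, 1433044_at, 1447586_at, 1447887_x_at and 1459767_x_at lay below the array median on all 8 arrays. Itgb8, the partner of alpha v in an integrin that activates latent TGF-beta, rose by 0.31 (adjusted p = 0.0473, limma), a call that held without control 3 and was lost without any other single array (0.24 to 0.34). Bgn, encoding the proteoglycan biglycan, fell by 0.82 on the log2 scale (adjusted p = 0.0024, limma) with all 3 of its sets called.

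Of 11 elastin-degrading proteases and their inhibitors, 1 fell and 1 rose, too few to set apart from the 5.52% and 4.2% of all genes. Timp1, an inhibitor of metalloproteinases, rose by 0.32 (adjusted p = 0.0135, limma) and Timp2, another, changed by -0.26 (adjusted p = 0.0444, limma). Timp1 did not pass without controls 1 and 3 (0.29), and Timp2 passed without control 1 or mutant 1 and was lost without any other single array (-0.27 to -0.23), and with its sets averaged (-0.10). Of the 6 Timp2 sets 4 changed downward and 1 passed in the fit over probe sets. That set, 1460287_at, changed by -0.32 (adjusted p = 0.0411, limma). The brightest, 1454677_at, did not pass there (adjusted p = 0.0683, limma). Set 1437081_at lay below the array median on all 8 arrays. Of the measured proteases 0 passed limma, and 2, Mmp7 and Ctsl, were lower at an unadjusted p under 0.05.

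**Figure D4:**
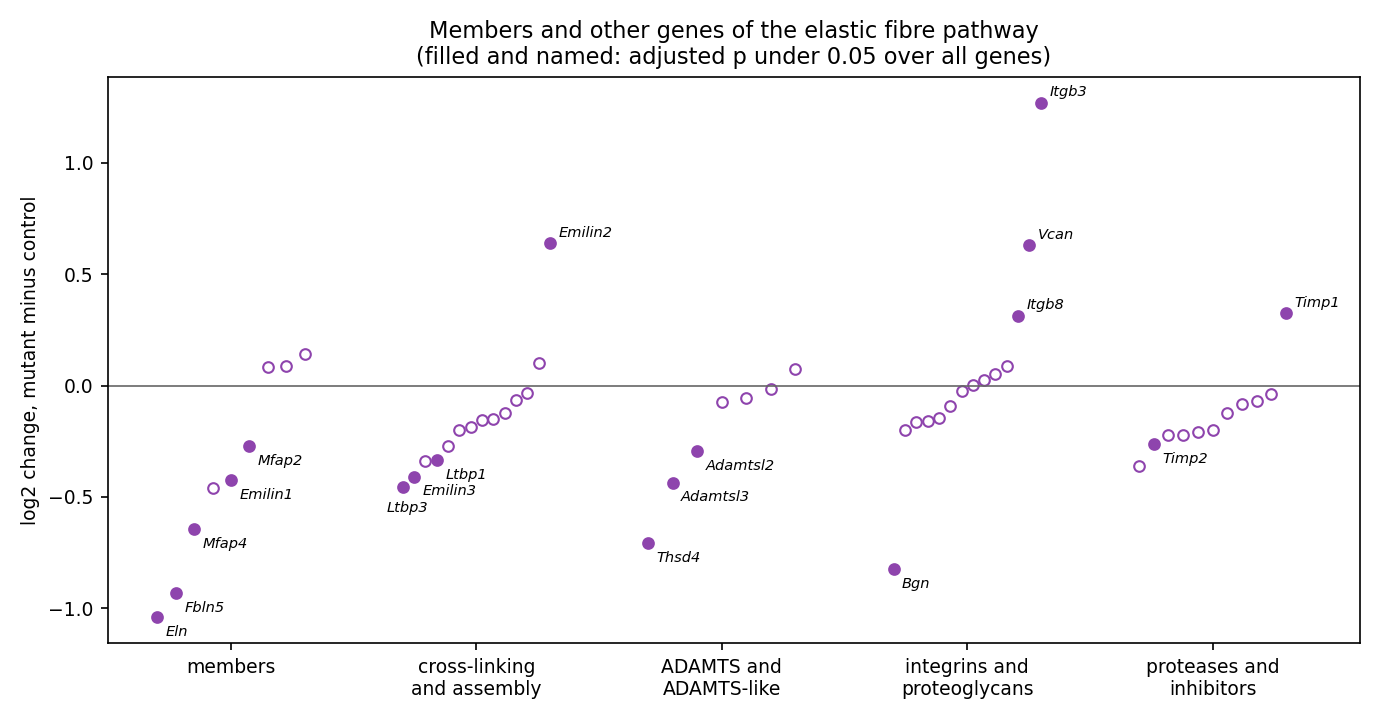
Log2 change, mutant minus control (vertical axis), of the 9 measured elastic fibre genes and of the 46 other genes in 4 lists; filled, named points passed an adjusted p of 0.05 over all genes. The members that passed lie at or below -0.27, and the points that passed above 0 are Emilin2, Itgb3, Vcan, Itgb8 and Timp1.

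Markers of other cell types in the bud moved on the same arrays. Their counts stand against 5.52% of all genes that fell and 4.2% that rose, and a count of 1 in a list this short is not read as a change of the list. Of 12 smooth muscle and pericyte markers 3 fell and 0 rose in limma (1 was higher at an unadjusted p under 0.05), and their mean log2 level was 8.17 to 8.57 in mutants and 8.47 to 8.76 in controls. The 3 that fell were Tagln (means of 8.38 in mutants and 9.26 in controls, log2 change -0.88, adjusted p = 0.0089, limma), Cspg4 (7.02 in mutants and 7.48 in controls, -0.46) and the smooth muscle actin gene Acta2 (13.17 in mutants and 13.43 in controls, -0.26). The Acta2 set, 1416454_s_at, has a suffix that marks probes that can match other transcripts. Acta1 (-1.03) and Actc1 (-0.35), actin genes of the skeletal muscle list, fell too, and a match to them was not tested. The pericyte marker Rgs5 changed by -0.79 and did not pass (adjusted p = 0.0859, limma). In the same list Notch3 changed by 0.14, Pdgfrb by 0.089, Kcnj8 by -0.097 and Abcc9 by -0.15, and these did not pass either. Of the 12 changes 9 were negative. The smooth muscle genes Myh11 (means of 5.32 in mutants and 5.26 in controls) and Cnn1 (5.03 in mutants and 5.18 in controls) lay below the array medians. Of 9 skeletal muscle markers 6 fell, with a mean level of 10.16 to 10.40 in mutants and 10.79 to 11.06 in controls. Of 6 tendon markers 4 fell, with a mean level of 7.55 to 7.75 in mutants and 8.11 to 8.31 in controls. Of 10 endothelial markers 3 rose, with a mean level of 8.15 to 8.39 in mutants and 7.94 to 8.03 in controls. Of 6 macrophage markers 3 fell (6.89 to 7.31 in mutants, 7.36 to 7.46 in controls), and of 4 Schwann cell and glial markers 2 fell (8.20 to 8.57 in mutants, 8.60 to 8.97 in controls). Lower at an unadjusted p under 0.05 (limma) were 9 skeletal muscle, 5 smooth muscle and pericyte, and 5 tendon markers. So were 4 macrophage and 3 Schwann cell and glial markers, while 7 endothelial markers were higher at that threshold. All 9 skeletal muscle changes and 0 of the 10 endothelial changes were negative. Of 8 neural crest mesenchyme markers 1 fell and 2 rose, and their mean level was 10.02 to 10.26 in mutants and 10.01 to 10.24 in controls. Of 7 cartilage markers 1 rose (7.06 to 7.13 in mutants, 6.79 to 7.12 in controls), and of 6 epithelial markers 0 passed limma and 2 were lower at an unadjusted p under 0.05 (9.89 to 10.46 in mutants, 10.27 to 10.55 in controls). The part of these shifts in the elastic fibre genes was not tested.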

How the data were processed

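Tongue bud RNA of 4 mutant and 4 control embryos was hybridised as biotin cRNA to Affymetrix arrays, per the labels' protocols. The deposited values are on a log2 scale, 1 per probe set and array, and RMA, which corrects background, equalises the arrays and summarises probes, is named in the submitters' processing notes without version or settings. The number of arrays limits the precision. Groups came from the sample titles.

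Probe sets naming several genes, no gene or array controls were left out. A gene stood by the set with the highest mean, with no filter on dim sets. Fits used limma 3.58.1 in R 4.3.3 (lmFit, eBayes, two-sided, no covariates), once over 18193 genes and once over 34945 single-gene probe sets, with Benjamini-Hochberg adjustment; log2 change is mutant minus control. The procedure was checked on simulated data. Named genes were all members, the 5 genes most like Eln, and in each of the 4 pathway lists every called gene and the 2 smallest p. The marker lists lay outside that rule. In them Tagln, Cspg4, Acta2, Rgs5, Notch3, Pdgfrb, Kcnj8, Abcc9, Myh11, Cnn1, Acta1 and Actc1 were named after their values were seen. So were the lysyl oxidases, Mmp7 and Ctsl. Former symbol Adamtsl6 was counted as Thsd4. Members and lists were chosen with earlier results of these data known. The alternatives were 16 settings.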

Additional observations from a re-analysis of the deposited data

Results flagged for a closer look

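In 3 of the 62 groups of 4 values examined, 1 array stood far from the other 3 of its group, about as many as chance gives (1 group in 20). Fbln1 set 1451119_a_at read 10.60 in mutant 1, against 10.46 to 10.48 in the other mutants. Fbln2 set 1438375_at, which is below the array median, read 3.06 in mutant 2, against 2.95 to 2.96 in the other mutants. Adamtsl3 set 1440668_at read 6.04 in mutant 4, against 6.14 in the other mutants.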

How the results depend on the processing

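Eln, Fbln5, Mfap4 and Emilin1 stayed below an adjusted p of 0.05 in limma in all 16 alternatives, with log2 changes of -1.10 to -0.65, -1.04 to -0.54, -0.69 to -0.61 and -0.46 to -0.27, the smallest sizes of Eln, Fbln5 and Emilin1 coming from the mean of all probe sets. Mfap2 lost its call in 10 of them. The count of members that fell was 4 to 5 with 1 array left out, and 0 rose in any setting; 4 to 6 probe sets fell. Deviations of same-numbered mutant and control arrays correlated at -0.58, -0.13, -0.34 and -0.38. Those of differently numbered arrays ran from -0.36 (mutant 3 with control 4) to 0.50 (mutant 3 with control 1). The labels name no pairs, and these values cannot show whether any samples were paired. Fitted with the replicate number as a replicate block, 4 members and 5 other pathway genes fell (-0.27 and an adjusted p of 0.151 for Mfap2), 3 pathway genes rose, and over all genes 637 fell and 329 rose. With the mean of all probe sets 5 pathway genes fell, and the mean level over the members changed by -0.29, against -0.38 with the brightest sets and -0.41 to -0.36 with 1 array left out; dimmer sets enter that mean. Without controls 1 and 3, 4 pathway genes fell, 3 rose, and 481 of all genes rose. Control 3 had the low Y-linked mean (3.09), and control 1 stood highest of the 8 arrays on the second principal component (18.2). With 1 array left out 4 to 8 pathway genes fell and 4 to 5 rose, and over all genes 687 to 960 fell and 428 to 623 rose; fewer arrays enter these fits. Over all genes 921 fell and 953 rose with each array centred on its median, and 995 fell and 639 rose with repeated quantile normalization, against 1004 and 764 as deposited, so which direction had more calls turned with the scaling. Values near 0 changed sign: Fbln1 was -0.00373 with the mean of all sets and -0.00645 with suffixed sets left out, Fbln2 was -0.0261 with suffixed sets left out, and Fbln1 minus Fbln2 was 0.0197 with suffixed sets left out and -0.242 to 0.0693 with 1 array left out, above 0 without control 4 or mutant 3. The call of Vcan was also lost with the mean of all sets (0.29), as were those of Ltbp1 (-0.22) and Timp2 (-0.10). Sets below the array median on all 8 arrays enter the mean of each of these genes. No detection call was used, so values under the array median limit what the dim sets show.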
